A study of Vitis vinifera with 15 samples.

Results

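The genes lower in both dark-skinned cultivars are those whose RNA in ripe grape skin was less abundant in every library of Midknight Beauty and Summer Black than in every library of Shine muscat, Centennial Seedless and Victoria. Abundance was given as FPKM (fragments per kilobase of transcript, scaled to the mapped fragments of the library), which is a level per transcript length. A gene was a member where it reached 1 FPKM in 3 or more of the 15 libraries and its highest value among the 6 dark-skinned libraries lay below its lowest value among the 9 light-skinned libraries. This held for 107 of the 18238 genes that passed the filter on low values (0.587%), out of 31924 genes listed. The members were thus chosen by their FPKM in all 15 libraries, and every value on dark against light skin below is a description without a test.

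The dark colour of grape skin comes from anthocyanins, pigments that are made in the flavonoid branch of the phenylpropanoid pathway and stored in the vacuoles of the outer cells. Light-skinned cultivars lack them, in most cases because the MYB transcription factors of the colour locus, which switch on the last steps of the pathway, are not active in the skin. The skin is also the tissue in which cuticle wax, flavonols, tannins and much of the berry's terpenes are made. The comparison asks which genes had less RNA in the skins that colour, whatever their pathway.

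The study set out to relate the aroma of table grapes to gene expression and sequenced ripe skin of 5 cultivars of Vitis vinifera as named in the labels, with 3 libraries each. Midknight Beauty (spelled Midnight Beauty in the study's text) is dark red with a muscat aroma, and Summer Black is dark red with a strawberry aroma. Shine muscat and Centennial Seedless are lime green with a muscat aroma, and Victoria is lime green without aroma. Colour and aroma are taken from the study's text, and stage (ripening) and cultivar from the labels. All vines stood in a single vineyard, and a replicate was made of bunches from several vines. The study's text describes no treatment of the vines and does not say that none was applied. The methods tie the library numbers to growth stages, whereas the labels and the study's summary of its sequencing call them replicates of ripe skin, and they were treated here as replicates.

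A grape cultivar is propagated as a clone, so each cultivar stands for 1 genotype, and skin colour cannot be told apart from anything else that Midknight Beauty and Summer Black share. In skin RNA as a whole, fewer cells of a type and less RNA per cell cannot be told apart either. FPKM summed to 718652 to 786207 per library, and 9440 to 10976 genes in each library had a value of 0. Read counts were not used here, so no counting error is given for a single value, and a value of 0 is given as listed. The median-of-ratios scaling factor was highest in Shine muscat 1 (1.15, against 0.914 to 1.06 in the other libraries). The study's summary of its sequencing gives this library the fewest mapped reads. None of the listed identifiers matched the reference list of 29591 grape genes used here, and the study's text annotates none of the members, so no member is given a name or a function here, and the skin origin of the libraries was not checked against marker genes. Members are therefore described by identifier, which for a gene of the reference annotation holds the chromosome and the scaffold (VIT_13s0019g03060 lies on scaffold 19 of chromosome 13). Of the 107 members, 102 came from the reference annotation and 5 were newly assembled by the authors. None of the 20 candidate aroma genes that the study names by identifier was a member. All 20 passed the filter. Members were only 0.587% of all tested genes, so nothing is read from this.

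The members ranged from genes near the limit of the filter to abundant transcripts. Their median level in the light-skinned libraries ran from 0.632 to 464 FPKM, with a median over the members of 7.88 FPKM. The ratio of the mean FPKM of the light-skinned libraries to that of the dark-skinned libraries had a median of 2.5 over the 105 members for which it exists, and ranged from 1.31 to 193. It was at least 2 for 69 members, at least 4 for 30 and at least 10 for 14, and under 1.5 for 14. On the log2(FPKM + 1) scale, the mean of the light-skinned libraries exceeded that of the dark-skinned libraries by a median of 0.97 over the members and 0.06 over all tested genes. The opposite arrangement, every dark-skinned library above every light-skinned one, was met by 69 genes (0.378% of those tested).

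Most members were still detected in dark skin. In 61 members every dark-skinned library reached 1 FPKM, and their ratio of light to dark means had a median of 1.94 (1.31 to 6.35). In 9 members all dark-skinned libraries lay below 1 FPKM and all light-skinned libraries at or above it, with a median ratio of 12.1. In a further 15 members all dark-skinned libraries and some of the light-skinned ones lay below 1 FPKM (median ratio 8.56), and in the other 22 the dark-skinned libraries lay on both sides of 1 FPKM (median ratio 3.53). The 9 and the 15 passed the filter on low values through their light-skinned libraries alone. The ratio was larger among the less abundant members: its median was 4.57 for the 42 members with a light-skinned median under 5 FPKM, 2.07 for the 52 between 5 and 50 FPKM, and 1.54 for the 13 at 50 FPKM or more. Large ratios thus belonged mostly to genes with few FPKM in light skin. A value of 0 was listed in at least 1 dark-skinned library for 15 members. In light-skinned libraries the rule allows no member a value of 0. All 3 Midknight Beauty libraries were listed at 0 for 7 members, and all 3 Summer Black libraries for 3.

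Summed over the 107 members, FPKM came to 1880.5 to 1987 in the Midknight Beauty libraries and 1403 to 1517 in Summer Black. The sums were 3377 to 4144 in Shine muscat, 3081 to 3546 in Centennial Seedless and 3046 to 3502 in Victoria. They made up 0.188% to 0.263% of the total of a dark-skinned library and 0.399% to 0.528% of that of a light-skinned library. The 6 most abundant members accounted for 638 to 1026 FPKM in the dark-skinned libraries and 1571 to 2213 FPKM in the light-skinned libraries. Within each side the cultivars also differed, with Summer Black below Midknight Beauty in every library and Shine muscat 1 above all other libraries. Divided by the median-of-ratios factors, the sum of Shine muscat 1 was still the highest, at 3616 against 3535 in Shine muscat 3. Without this library 110 genes met the rule. These hold all 107 members by construction, since leaving out a library can only add genes.

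**Figure D1:**
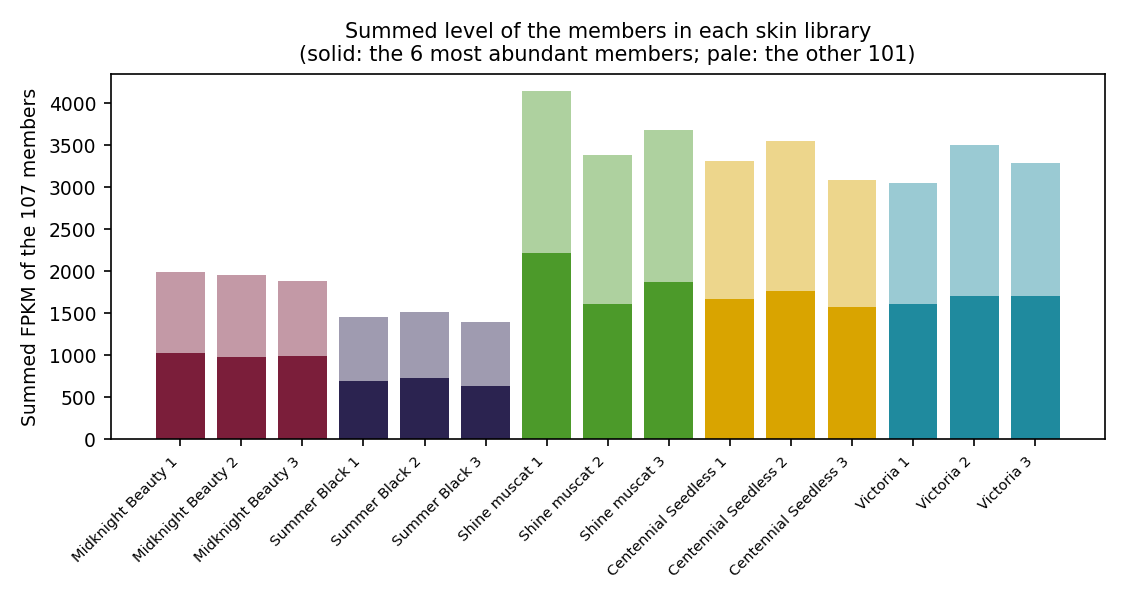
Summed FPKM of the 107 members (y axis) in each of the 15 skin libraries (x axis), with the 6 most abundant members in solid and the other 101 in pale colour. The 6 dark-skinned libraries on the left reach 1403 to 1987 FPKM and the 9 light-skinned libraries 3046 to 4144 FPKM, a separation that the rule for choosing members imposes on each gene.

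The most abundant member was VIT_04s0044g00020 on chromosome 4. It gave 320.1, 254 and 277 FPKM in Midknight Beauty and 76.1, 70.2 and 47.3 FPKM in Summer Black. It reached 740.4, 400.2 and 521 FPKM in Shine muscat, 447, 457 and 464 FPKM in Centennial Seedless and 522, 454 and 559.9 FPKM in Victoria. Summer Black was lowest by far, Midknight Beauty came between it and the light-skinned cultivars, and these overlapped among themselves. The ratio of light to dark means was 2.91. VIT_06s0004g05400 had a ratio of 2.75, with 42.2 to 189.5 FPKM (median 142, n = 6) in dark skin and 199.5 to 636 FPKM (median 255, n = 9) in light skin. Here the upper end of the light-skinned range was Shine muscat, at 636, 467 and 563 FPKM, while Centennial Seedless 3, at 199.5 FPKM, was only just above Midknight Beauty 2, at 189.5 FPKM.

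The other abundant members differed less between the sides. VIT_11s0016g03210 measured 199.6 to 309 FPKM (median 258, n = 6) in dark skin and 337 to 418 FPKM (median 372, n = 9) in light skin, a ratio of 1.48. VIT_07s0005g03360 (ratio 1.54) and VIT_03s0038g01780 (ratio 1.53) were of the same kind, with light-skinned medians of 212 and 134 FPKM. VIT_00s0274g00090, on an unplaced scaffold, was highest in Centennial Seedless (283, 320.2 and 205 FPKM) and had a ratio of 2.53. Its other light-skinned libraries reached down to 87.8 FPKM in Victoria 1, against 83.2 FPKM in the highest dark-skinned library, Summer Black 2.

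The separation of the sides was measured by the gap, the log2(FPKM + 1) of the lowest light-skinned library minus that of the highest dark-skinned library. Over the 107 members its median was 0.10, and it exceeded 0.5 in 13 members and stayed under 0.1 in 52. The widest gap, 1.06, belonged to VIT_00s1682g00020 on an unplaced scaffold. This gene was listed at 0 in the 3 Midknight Beauty libraries and gave 0.0384, 0 and 0.0358 FPKM in Summer Black. It gave 2.94, 1.83 and 2.15 FPKM in Shine muscat, 2.31, 3.91 and 2.11 FPKM in Centennial Seedless and 1.17, 2.36 and 2.64 FPKM in Victoria. It was thus at or near 0 in dark skin and at a similar low level in the 3 light-skinned cultivars, and its ratio of 193 is the upper end of the range above.

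VIT_13s0019g03060 (gap 1.01) measured 0.124 to 0.684 FPKM (median 0.217, n = 6) in dark skin and 2.38 to 4.51 FPKM (median 3.38, n = 9) in light skin. VIT_16s0039g02290 (gap 0.96) was expressed on both sides, at 2.65 ± 0.641 FPKM (SD, n = 3) in Midknight Beauty, 5.69 ± 1.2 in Summer Black, 27.2 ± 6.02 in Shine muscat, 19.6 ± 4.98 in Centennial Seedless and 32.5 ± 11.6 in Victoria. It had the largest ratio (6.35) of the 61 members that reached 1 FPKM in every dark-skinned library. VIT_13s0106g00780 (gap 0.63, ratio 4.97) and VIT_15s0048g00930 (gap 0.62, ratio 2.43) were likewise expressed in dark skin, at 3.41 to 9.93 FPKM and 3.75 to 6.07 FPKM. Their light-skinned libraries gave 15.9 to 45.8 FPKM and 9.85 to 16.1 FPKM. Genes with a wide gap thus included some with several FPKM in dark skin.

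In contrast, several of the members with a wide gap were at or below 1 FPKM throughout dark skin. VIT_13s0019g02130 (gap 0.86) was listed at 0 in Midknight Beauty, gave 0.377, 0.238 and 0 FPKM in Summer Black, and gave 1.5 to 6.01 FPKM (median 3.01, n = 9) in light skin. VIT_12s0035g00180 (gap 0.85) gave 0.573, 0.454 and 0.612 FPKM in Midknight Beauty and 0.0805, 0.176 and 0 FPKM in Summer Black. Its light-skinned libraries were spread widely, at 13.7, 1.91 and 11.4 FPKM in Shine muscat, 6.39, 3.33 and 2.29 FPKM in Centennial Seedless and 2.65, 6.95 and 7.6 FPKM in Victoria. The libraries of 1 cultivar thus differed among themselves by several times for this gene, Shine muscat 2 being the lowest of the 9.

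The members listed at 0 in all 6 dark-skinned libraries were VIT_05s0094g01200 and VIT_12s0035g00470, and no fold is given for them. VIT_05s0094g01200 gave 1.75, 1.15 and 1.2 FPKM in Shine muscat, 1.38, 3.91 and 1.61 FPKM in Centennial Seedless and 0.839, 1.71 and 2.28 FPKM in Victoria. VIT_12s0035g00470 gave 1.12, 0.716 and 1.3 FPKM in Shine muscat, 1.73, 0.899 and 0.455 FPKM in Centennial Seedless and 0.446, 0.358 and 0.369 FPKM in Victoria. Both were scarce in every light-skinned cultivar too, and VIT_12s0035g00470 was lowest in Victoria.

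**Figure D2:**
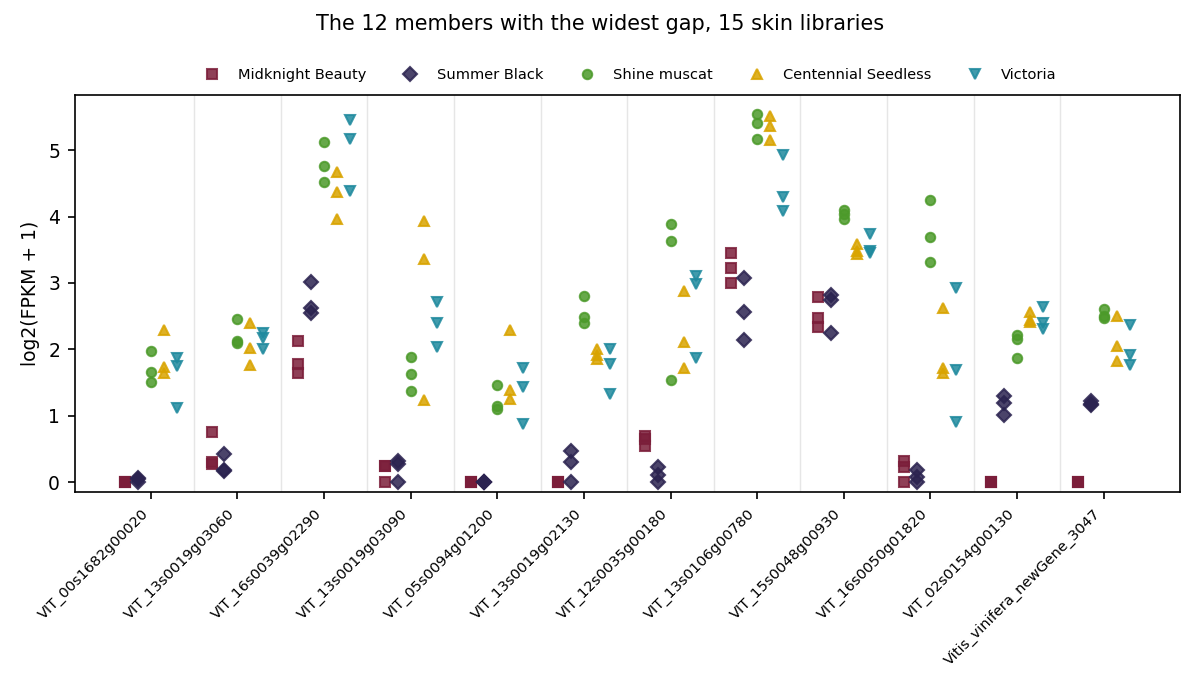
Level of the 12 members with the widest gap (x axis) as log2(FPKM + 1) (y axis), with 1 point for each library and 1 symbol for each cultivar. Midknight Beauty and Summer Black lie below the other cultivars in every gene by construction, and the gaps run from 0.53 to 1.06. In VIT_02s0154g00130 and Vitis_vinifera_newGene_3047 the Midknight Beauty libraries are at 0 and the Summer Black libraries above 1 on this scale.

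At the other end, the rule was met by small margins. The smallest gap belonged to VIT_19s0090g00940, whose highest dark-skinned library gave 4.53 FPKM and whose lowest light-skinned library gave 4.54 FPKM. VIT_13s0047g00510 (5.7 and 5.75 FPKM) and VIT_13s0147g00150 (0.594 and 0.608 FPKM) followed. Just outside the rule, 31 genes had a gap of exactly 0, all of them listed at 0 in at least 1 library, among them VIT_00s0211g00090, VIT_00s0231g00080 and VIT_00s0259g00090. The nearest genes with a negative gap, looked up after the values were seen, were VIT_08s0040g03220, VIT_03s0091g00740 and VIT_08s0007g00530, whose lowest light-skinned value minus highest dark-skinned value came to -0.00279, -0.0499 and -0.357 FPKM. At the boundary, the members with the smallest gaps and these genes with a negative gap thus hardly differed. By the rule no member can be listed at 0 in a light-skinned library, whereas the named genes with a gap of 0 were.

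Every dark-skinned library set the boundary for some members, and on the light-skinned side Victoria 1 set it most often. The lowest light-skinned library belonged to Victoria for 47 of the 107 members, to Centennial Seedless for 39 and to Shine muscat for 21, and it was Victoria 1 for 32. The highest dark-skinned library belonged to Midknight Beauty for 75 members and to Summer Black for 32. Without Midknight Beauty 2 the rule was met by 194 genes and without Victoria 1 by 173, and each of these sets holds all 107, since leaving out a library can only add genes. Under median-of-ratios scaling the rule was met by 103 genes, 85 of them among the 107, and after quantile normalization by 97, of which 78 were among the 107.

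The members were spread over the genome, except for chromosome 1, which had 0 members among 1013 tested genes. Chromosome 13 had 16 members among 981 tested genes (1.63%), against 0.587% of all tested genes, and chromosome 2 had 7 among 674 (1.04%). The other chromosomes had between 0.138% (chromosome 17) and 0.783% (chromosome 19). The unplaced scaffolds held 9 members of 1312 tested genes (0.686%) and the newly assembled genes 5 of 745 (0.671%). Of the 69 genes higher in both dark-skinned cultivars (0.378% of all tested genes), 7 lay among the 981 tested genes of chromosome 13. Chromosome 6 had 8 among 936 tested genes and chromosome 14 had 8 among 1082. The members of chromosome 13 had a median ratio of light to dark means of 4.89 (1.38 to 35.9), those of chromosome 2 of 3.13 (1.57 to 6.5) and those of chromosome 5 of 5.24 (1.35 to 19.2). The 4 members of chromosome 16 had a higher median, 15.8 (1.38 to 65.1). These shares are descriptions, since neighbouring genes are not independent of each other.

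**Figure D3:**
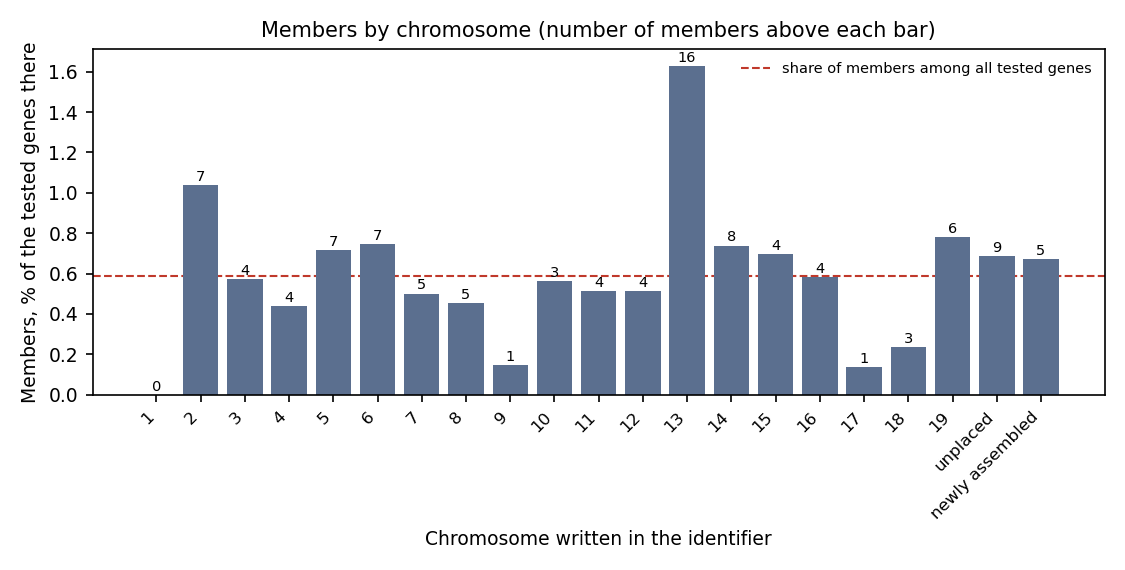
Members as a percentage of the tested genes (y axis) for each chromosome as written in the gene identifier, for unplaced scaffolds and for newly assembled genes (x axis), with the number of members above each bar. The dashed line is the share over all tested genes, 0.587%. Chromosome 13 stands highest, with 16 members and 1.63%.

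On chromosome 13, 7 members belonged to scaffold 19, of 324 tested genes there (2.16%), and 3 to scaffold 147, of 12 tested genes (25%). The 7 on scaffold 19 had a median ratio of 15.1 (2.18 to 35.9) and light-skinned medians of 0.632 to 4.5 FPKM. By contrast, the 5 members on scaffold 4 of chromosome 6 had ratios of 1.94 to 2.75, and the 4 on scaffold 48 of chromosome 15 ratios of 1.98 to 2.94. Within scaffold 19 the 8 consecutive identifiers from VIT_13s0019g03060 to VIT_13s0019g03130 included 5 tested genes, and all 5 were members. These 5 passed the filter through light-skinned libraries alone. The other 3 identifiers did not exceed 0.103 FPKM in any library. VIT_13s0019g03060 is described above.

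VIT_13s0019g03090 gave 0 to 0.245 FPKM (median 0.187, n = 6) in dark skin, 2.09, 1.6 and 2.71 FPKM in Shine muscat, 9.26, 14.3 and 1.36 FPKM in Centennial Seedless and 4.27, 5.56 and 3.11 FPKM in Victoria. Its immediate neighbour VIT_13s0019g03100 gave 0.0641 to 0.66 FPKM (median 0.215, n = 6) in dark skin, 2.86, 5.68 and 3.38 FPKM in Shine muscat, 1.16, 1.11 and 1.23 FPKM in Centennial Seedless and 2, 2.26 and 4.8 FPKM in Victoria. The light-skinned cultivars were thus not in the same order in these neighbours, Centennial Seedless being highest in 2 libraries of the first and lowest in the second. VIT_13s0019g03120 and VIT_13s0019g03130 were lower still, at 0.168 to 3.12 FPKM and 0.204 to 2.06 FPKM in light skin and no more than 0.108 and 0.166 FPKM in dark skin. Both were lowest in Centennial Seedless among the light-skinned means. Where neighbouring genes are near-identical copies, counting can divide reads between them, and this was not tested.

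The tested genes on either side did not meet the rule. VIT_13s0019g03040 was highest in Summer Black 1, at 2.59 FPKM. VIT_13s0019g03160 gave 8.58, 3.95 and 5.26 FPKM in Midknight Beauty and 14, 23.7 and 3.67 FPKM in Centennial Seedless, and VIT_13s0019g03170 gave 163, 69.4 and 74.1 FPKM and 169, 57.7 and 31.9 FPKM. In all 3 of these genes the libraries of dark and light skin overlapped. In VIT_13s0019g03160 the overlap came from Midknight Beauty, since the Summer Black libraries (3.09, 1.47 and 1.59 FPKM) lay below every light-skinned library. VIT_13s0019g03050, adjacent to the stretch, did not pass the filter and was listed at 0 throughout dark skin. Its light-skinned libraries gave 0 to 2.42 FPKM.

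**Figure D4:**
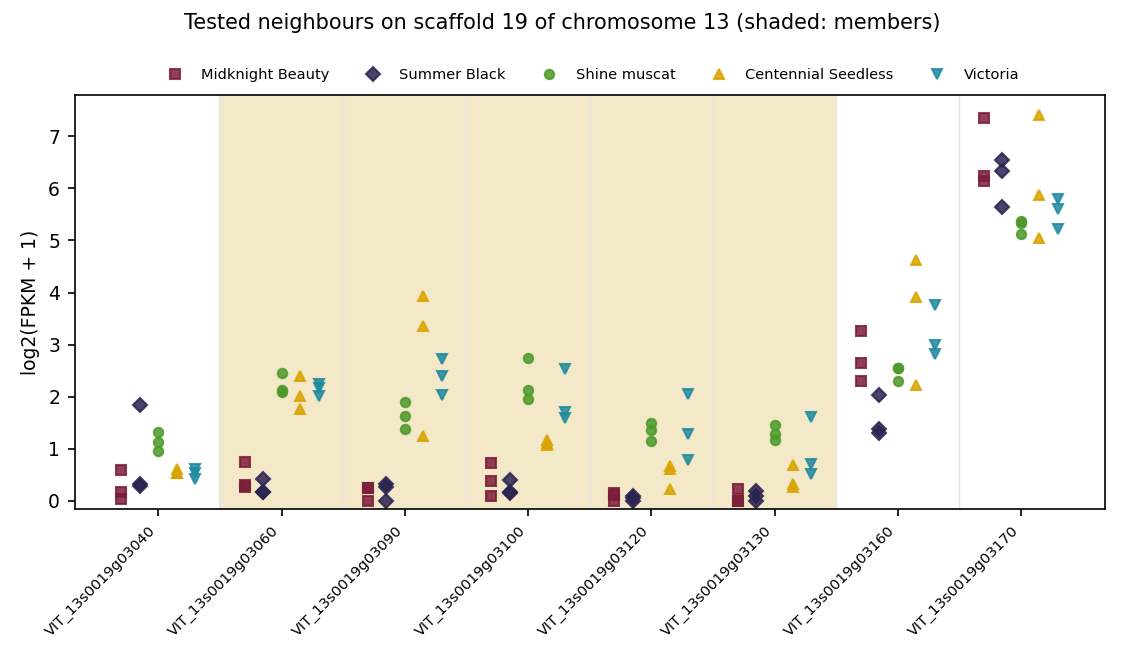
Level as log2(FPKM + 1) (y axis) of the tested genes around the 5 neighbouring members on scaffold 19 of chromosome 13 (x axis, in the order of identifiers, members shaded), with 1 point for each library. The dark-skinned libraries of the shaded genes do not exceed 0.684 FPKM, and the unshaded neighbours overlap between dark and light skin.

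Taken over all listed genes, 12 members formed 6 pairs of adjacent identifiers. VIT_16s0050g01820 and VIT_16s0050g01830 were the pair with the largest ratios, 65.1 and 25.3. VIT_16s0050g01820 gave 0 to 0.24 FPKM (median 0.0941, n = 6) in dark skin, 11.9, 18 and 8.99 FPKM in Shine muscat, 2.12, 5.16 and 2.31 FPKM in Centennial Seedless and 2.24, 6.59 and 0.877 FPKM in Victoria. VIT_16s0050g01830 gave 0.394 to 1.68 FPKM (median 0.931, n = 6) in dark skin, 43.9, 83.6 and 50.3 FPKM in Shine muscat, 6.57, 13.2 and 3.84 FPKM in Centennial Seedless and 4.79, 13.7 and 2.38 FPKM in Victoria. Both were highest in Shine muscat, with library 2 above libraries 1 and 3, and in Centennial Seedless and Victoria library 2 was the highest as well.

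The pair VIT_05s0049g00720 and VIT_05s0049g00730 had its highest means in Victoria instead. VIT_05s0049g00720 gave 2.97, 28.9 and 12.9 FPKM in Victoria and 1.28 to 5.27 FPKM in the other light-skinned libraries. VIT_05s0049g00730 gave 6.99, 42 and 22.5 FPKM in Victoria and 0.828 to 4.75 FPKM in the other light-skinned libraries. In dark skin both genes stayed at or under 0.877 FPKM. Victoria 1 was far below Victoria 2 in both genes, so the level in this cultivar varied several times between libraries.

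VIT_00s0347g00110 and VIT_00s0347g00120, on an unplaced scaffold, were more even, at 1.41 to 2.71 FPKM (median 2.1, n = 9) and 0.778 to 3.71 FPKM (median 3.06, n = 9) in light skin. Their dark-skinned libraries gave 0.264 to 1.03 FPKM and 0.133 to 0.485 FPKM. On scaffold 147 of chromosome 13, VIT_13s0147g00150 was listed at 0 in Midknight Beauty and gave 0.594, 0 and 0.434 FPKM in Summer Black. Its neighbour VIT_13s0147g00160 gave 6.19, 7.36 and 4.76 FPKM in Midknight Beauty, 10.7, 12.1 and 11.5 FPKM in Summer Black, 28, 26.4 and 24.2 FPKM in Shine muscat, 22.1, 18.6 and 18.2 FPKM in Centennial Seedless and 12.8, 15.4 and 13.3 FPKM in Victoria. For this gene the 5 cultivars did not overlap at all, and stood in the ascending order Midknight Beauty, Summer Black, Victoria, Centennial Seedless and Shine muscat.

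Differences between cultivars of the same colour are not the contrast of the rule, and these were tested with limma on log2(FPKM + 1), in a fit of all 15 libraries with p-values adjusted over the 18238 genes. A gene was taken as a differentially expressed gene (DEG) where the log2 fold change reached 1 or -1 and the adjusted p lay under 0.005. The p-values measure only the spread between these libraries. The rule used the highest dark-skinned and the lowest light-skinned value of these same libraries and thereby bears on the spread within a colour, so nothing is read from the share of members called. Between Midknight Beauty and Summer Black, 5 of the 107 members were DEGs (4.67%), against 7.16% of all tested genes. Of these, 3 were higher in Midknight Beauty (background 4.02%) and 2 lower (background 3.14%). In a limma fit of these 6 libraries alone, 3 members were called (2.8%, against 1.73% of all tested genes).

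The direction of the smaller differences was uneven. Mean log2(FPKM + 1) was higher in Midknight Beauty for 77 members (72%), against 52.1% of all tested genes, with a median difference of 0.22 over the members and 0.03 over all tested genes. All Midknight Beauty libraries lay above all Summer Black libraries in 30 members (28%, against 18.9% of all tested genes), the reverse held in 6 (5.61%, against 16.8%), and 71 overlapped. The share higher in Midknight Beauty was 73.6% under median-of-ratios scaling and 65.1% after quantile normalization. The rule used the dark-skinned values of these same libraries to choose the members and bears on these shares. No test is given for them, and nothing is read from their distance to all tested genes.

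VIT_04s0044g00020, the most abundant member, differed most between the dark-skinned cultivars, with 284 ± 33.7 FPKM (SD, n = 3) in Midknight Beauty and 64.5 ± 15.2 FPKM in Summer Black. Its log2 fold change was 2.14 (SE 0.21, adjusted p = 1.6e-05 in limma), and all 3 libraries of the former lay above all 3 of the latter. VIT_13s0067g00910 gave 4.07, 3.58 and 3.98 FPKM in Midknight Beauty and 1.14, 1.24 and 0.986 FPKM in Summer Black, or 1.20 on the log2 scale (SE 0.14, adjusted p = 5.4e-05 in limma, and 0.00813 in the fit of these cultivars alone, where the call was lost). VIT_02s0012g00360 gave 13.4, 12 and 10.7 FPKM and 6.71, 5.43 and 4.03 FPKM, or 1.04 on the log2 scale (SE 0.19, adjusted p = 0.00155 in limma). The call of VIT_02s0012g00360 was lost without Midknight Beauty 1, Midknight Beauty 2 or Summer Black 3, at a log2 fold change of 0.88 to 1.05 and an adjusted p of 0.006 to 0.00864 in limma. It was also lost in the fit of these cultivars alone (adjusted p = 0.0299 in limma).

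The 2 members lower in Midknight Beauty were both listed at 0 in its 3 libraries. VIT_02s0154g00130 gave 1.28, 1.47 and 1.02 FPKM in Summer Black and 2.66 to 5.19 FPKM (median 4.28, n = 9) in light skin. The newly assembled Vitis_vinifera_newGene_3047 gave 1.27, 1.25 and 1.34 FPKM in Summer Black and 2.38 to 5.08 FPKM (median 4.13, n = 9) in light skin. The log2 fold changes of Midknight Beauty against Summer Black were -1.17 (SE 0.15, adjusted p = 0.000117 in limma) and -1.19 (SE 0.19, adjusted p = 0.000671 in limma). Summer Black thus held an intermediate level, with each of its libraries above Midknight Beauty and below every light-skinned library.

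**Figure D5:**
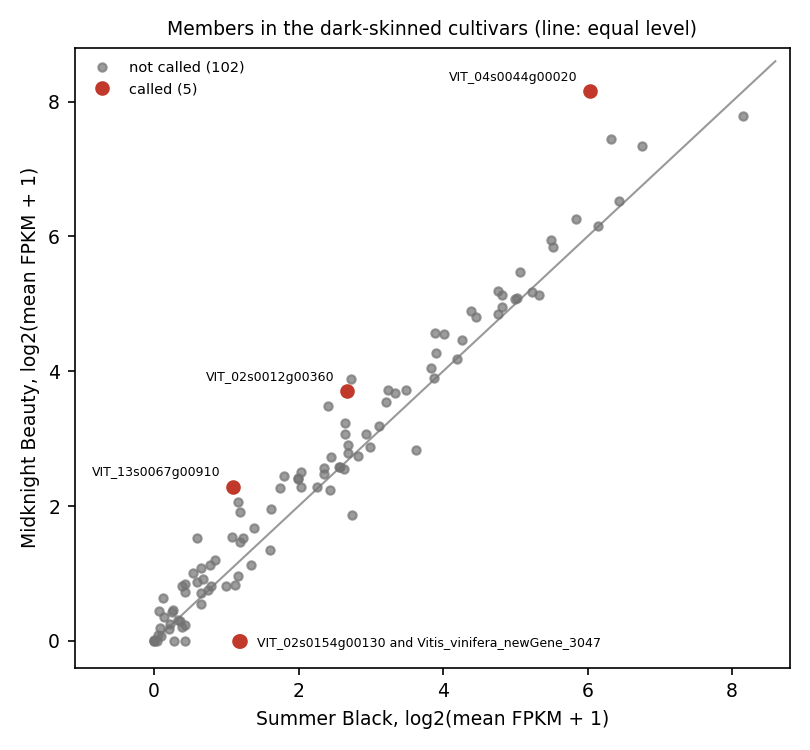
Mean level of the 107 members in Summer Black (x axis) and Midknight Beauty (y axis), both as log2(mean FPKM + 1), 3 libraries each, with the line of equal level. The 5 members that passed the test are in red, and 77 of the 107 members had the higher mean log2(FPKM + 1) in Midknight Beauty.

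Among the light-skinned cultivars, 5 of the 107 members differed between Shine muscat and Victoria (4.67%, against 6.75% of all tested genes), 4 between Centennial Seedless and Victoria (3.74%, against 3.27%) and 4 between Shine muscat and Centennial Seedless (3.74%, against 5.69%). Shine muscat was higher than Victoria in 4 (background 4.1%) and lower in 1 (2.65%), and it was the higher cultivar in all 4 members that differed from Centennial Seedless (background 3.54% higher and 2.14% lower). Centennial Seedless was higher than Victoria in 2 (1.48%) and lower in 2 (1.79%). These comparisons share their libraries. In all, 7 members were DEGs among the light-skinned cultivars (6.54%, against 10.2% of all tested genes) and 11 in any of the 4 comparisons within a colour (10.3%, against 14.9%), while 96 members were DEGs in none. Shine muscat had the highest mean of the light-skinned cultivars for 51 members (47.7%), close to the 47.4% of all tested genes.

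The median difference between Shine muscat and Victoria was 0.09 over the members and 0.10 over all tested genes on the log2 scale. Median-of-ratios scaling shifted the latter to -0.02 and the former to -0.04. The median difference between Centennial Seedless and Victoria was -0.01 over the members and 0.01 over all genes, and that between Shine muscat and Centennial Seedless was 0.13 over the members and 0.10 over all genes. All Shine muscat libraries lay above all Victoria libraries in 30 members (28%, against 28.8% of all tested genes), and the reverse held in 12 (11.2%, against 15.2%). For Centennial Seedless and Victoria these numbers were 13 (12.1%, against 12%) and 15 (14%, against 10.6%), and for Shine muscat and Centennial Seedless 36 (33.6%, against 27.5%) and 12 (11.2%, against 16.6%). In each of these comparisons the median of the members thus lay close to that of all tested genes.

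VIT_16s0050g01830 showed the largest difference among the light-skinned cultivars. With 59.3 ± 21.3 FPKM (SD, n = 3) in Shine muscat, 7.88 ± 4.83 FPKM in Centennial Seedless and 6.95 ± 5.95 FPKM in Victoria, its log2 fold change was 3.14 (SE 0.50, adjusted p = 0.00067 in limma) for Shine muscat against Victoria. Against Centennial Seedless it was 2.85 (SE 0.50, adjusted p = 0.00149 in limma). All 3 Shine muscat libraries lay above the 6 others. The call against Centennial Seedless was lost without Shine muscat 2 or 3 or Centennial Seedless 1 or 3, with a log2 fold change of 2.48 to 2.94 and an adjusted p of 0.0061 to 0.00929 in limma. In fits of the compared cultivars alone both calls were lost, at an adjusted p of 0.00996 against Victoria and 0.00672 against Centennial Seedless in limma.

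VIT_10s0071g00940 formed a series, with 22.4, 16.6 and 20.2 FPKM in Shine muscat, 8.95, 11.4 and 12.8 FPKM in Centennial Seedless and 4.7, 4.96 and 4.76 FPKM in Victoria. The log2 fold change against Victoria was 1.83 (SE 0.17, adjusted p = 7.75e-06 in limma) for Shine muscat and 1.04 (SE 0.17, adjusted p = 0.00129 in limma) for Centennial Seedless. In Victoria it was scarcely above Midknight Beauty, whose libraries gave 4.64, 4.25 and 4.2 FPKM. The call for Centennial Seedless was lost without Centennial Seedless 2 or 3 or any 1 of the Victoria libraries, with a log2 fold change of 0.94 to 1.06 and an adjusted p of 0.00552 to 0.00876 in limma. It was also lost in the fit of the compared cultivars alone (adjusted p = 0.0268 in limma).

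VIT_03s0038g03550 was nearly absent from Victoria too, at 0.11, 0.148 and 0.0992 FPKM, and from dark skin, where only Midknight Beauty 3 was above 0, at 0.0336 FPKM. It gave 1.9, 1.43 and 1.47 FPKM in Shine muscat and 1.01, 1.65 and 1.53 FPKM in Centennial Seedless. The log2 fold change against Victoria was 1.21 (SE 0.13, adjusted p = 3.21e-05 in limma) for Shine muscat and 1.09 (SE 0.13, adjusted p = 0.000139 in limma) for Centennial Seedless. The latter call was lost in the fit of the compared cultivars alone (adjusted p = 0.00814 in limma). Its light-skinned mean therefore came mostly from the green muscat cultivars. Its ratio of light to dark means, 186, rested on a dark-skinned mean of 0.0056 FPKM that came from 1 library.

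VIT_07s0031g01540 was higher in Shine muscat (32.1, 25 and 27.5 FPKM) than in Victoria (11.6, 11.7 and 12.5 FPKM), the log2 fold change being 1.17 (SE 0.20, adjusted p = 0.0014 in limma). The log2 fold change against Centennial Seedless was 1.10 (SE 0.20, adjusted p = 0.00229 in limma). Both calls were lost under several left-out libraries. The call against Victoria was lost without Shine muscat 1 or 3 or Victoria 1 or 2 (log2 fold change 1.07 to 1.18, adjusted p of 0.00602 to 0.01 in limma), and the call against Centennial Seedless without any 1 of the Shine muscat libraries or Centennial Seedless 1 or 2 (0.92 to 1.18, adjusted p of 0.00588 to 0.0155 in limma). The latter was also lost in the fit of the compared cultivars alone (adjusted p = 0.0104 in limma).

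VIT_05s0049g00730, described above with its neighbour, was lower in Shine muscat than in Victoria, the log2 fold change being -2.54 (SE 0.50, adjusted p = 0.00303 in limma). It was lower in Centennial Seedless than in Victoria, with -2.90 (SE 0.50, adjusted p = 0.00211 in limma). The first call was lost without Shine muscat 2 or 3 or Victoria 2 or 3 (log2 fold change -2.63 to -1.99, adjusted p of 0.0104 to 0.0153 in limma), and the second without any 1 of the Centennial Seedless libraries or Victoria 2 or 3 (-2.99 to -2.35, adjusted p of 0.00809 to 0.0111 in limma). Both calls were also lost with the replicate number as a block (adjusted p of 0.00606 and 0.00542 in limma) and in fits of the compared cultivars alone (0.043 and 0.053).

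VIT_00s0347g00120 was lower in Centennial Seedless (0.897, 1.45 and 0.778 FPKM) than in the other light-skinned cultivars (3.71, 3.06 and 3.08 FPKM in Shine muscat and 2.86, 3.42 and 3.5 FPKM in Victoria). The log2 fold change of Centennial Seedless against Victoria was -1.07 (SE 0.16, adjusted p = 0.000598 in limma), and that of Shine muscat against Centennial Seedless 1.08 (SE 0.16, adjusted p = 0.00037 in limma). Without Centennial Seedless 3 both fell just short of a log2 fold change of 1, at -0.98 and 0.99. Both calls were also lost in fits of the compared cultivars alone (adjusted p of 0.024 and 0.00685 in limma), the first with a pseudocount of 0.1 (adjusted p = 0.00583 in limma), and the second under median-of-ratios scaling, just under a log2 fold change of 1. VIT_13s0067g00910 was the member called on both sides, with 14.6, 11.3 and 14.2 FPKM in Shine muscat, 4.56, 4.93 and 4.69 FPKM in Centennial Seedless and 10.3, 9.76 and 8.41 FPKM in Victoria. Its log2 fold change for Shine muscat against Centennial Seedless was 1.32 (SE 0.14, adjusted p = 2.34e-05 in limma), and Centennial Seedless, the lowest light-skinned cultivar, lay nearer to Midknight Beauty than to Shine muscat.

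The other 4 newly assembled members, named here because the group is small, differed between the sides to varying degrees. Vitis_vinifera_newGene_2266 and Vitis_vinifera_newGene_2501 were abundant, at 33.3 to 38.4 FPKM and 13.6 to 24.1 FPKM in dark skin. Their light-skinned libraries gave 39.5 to 59.2 FPKM and 26.1 to 38 FPKM, with ratios of 1.36 and 1.59. Vitis_vinifera_newGene_2525 (ratio 3.11) and Vitis_vinifera_newGene_2286 (ratio 4.31) were scarce, at no more than 3.99 and 2.28 FPKM. None of these 4 was a DEG in a comparison within a colour.

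Single libraries deviated from the mean of their cultivar over the members. Victoria 1 lay below the mean of its cultivar by a median of 0.14 on the log2 scale over the members (0.09 over all tested genes) and was the lowest Victoria library for 66 members (61.7%, against 51% of all tested genes). Shine muscat 2 was the lowest Shine muscat library for 67 members (62.6%, against 42.4%), and Centennial Seedless 2 the highest Centennial Seedless library for 55 (51.4%, against 38.3%). In the dark-skinned cultivars the deviations were smaller, with medians between -0.03 in Midknight Beauty 3 and 0.03 in Summer Black 2. The same held over all tested genes, with -0.04 in Summer Black 1 to 0.05 in Summer Black 2. The light-skinned medians over all tested genes ran from -0.09 in Victoria 1 to 0.09 in Victoria 2.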

How the data were processed

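The authors deposited FPKM per gene from mapped and assembled reads, and counts were not used here. The submitters' processing notes name HISAT2 and StringTie, the study's methods Bowtie2 and RSEM on the PN40024 genome, and the labels and the methods also name different RNA and library kits. Values were used as deposited on the log2(FPKM + 1) scale (pseudocount 1), which understates changes of scarce genes. Genes at 1 FPKM or more in 3 or more libraries were tested. Cultivars of the same skin colour were compared with limma 3.58.1 in R 4.3.3 (lmFit, and eBayes with a trend, one fit of all libraries), two-sided, with Benjamini-Hochberg adjustment over the 18238 tested genes. The thresholds for a call (1 or more on the log2 scale and an adjusted p under 0.005) are those of the study's methods. The study's results section instead states 2 or more and a false discovery rate of at most 0.01 for its DEGs. That pair was tried here as the stricter thresholds. On simulated data for Midknight Beauty against Summer Black with 18238 genes, 160 of 200 genes changed by 2 on the log2 scale were called, and 1 of 18038 unchanged genes. The changed genes had a mean log2(FPKM + 1) of at least 2, and the noise was drawn independently for each library. The share called was thus not measured for scarcer genes or for libraries that vary together. Other steps used Python 3.11.15 with numpy 2.4.6, pandas 2.3.3 and matplotlib 3.10.9.

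The members, lists and tests were chosen with earlier results of these data known. Members are named where they had 1 of the 12 widest gaps, 1 of the 6 highest light-skinned medians or 1 of the 3 smallest gaps, were listed at 0 throughout dark skin, were among the 3 called members of largest change in a comparison, or lay in 1 of 6 runs of adjacent identifiers. Other called members and the newly assembled ones were added after their values were seen. The alternatives tried were scaling by median of ratios, quantile normalization, filtering at 5 FPKM or not at all, a pseudocount of 0.1, stricter thresholds, a variance without trend, a fit of the compared cultivars only, replicate number as a block, and each library left out in turn. Lists of pathway genes were not applied here, since the reference list used here matched no identifier.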

Additional observations from a re-analysis of the deposited data

How the results depend on the processing

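No named member's difference changed sign under any of these alternatives. For light against dark skin the rule fixes that sign, so only median-of-ratios scaling and quantile normalization could have changed it. Medians near 0 over the members did change sign. The median of Shine muscat minus Victoria went from 0.09 to -0.04 under median-of-ratios scaling (59.8% to 46.2% of members higher in Shine muscat), and that of Centennial Seedless minus Victoria from -0.01 to 0.05 with a filter at 5 FPKM and -0.08 to 0.07 with 1 library left out. The number of members was 70 with a filter at 5 FPKM, 126 without a filter, and 110 to 194 over the 15 sets that leave out 1 library. The median difference between light and dark skin over the members (0.97) was 1.33 with a pseudocount of 0.1 and 0.82 to 0.98 with 1 library left out. At stricter thresholds (2 or more on the log2 scale, adjusted p up to 0.01), the members called fell to 1 between Midknight Beauty and Summer Black, 2 between Shine muscat and Victoria, 1 between Centennial Seedless and Victoria, and 1 between Shine muscat and Centennial Seedless, while the share of all tested genes fell to 2.69%, 2.43%, 1.22% and 2.24%. Fits of the compared cultivars only, which estimate the spread from fewer libraries, called 3, 4, 0 and 1 members in these comparisons (2.8%, 3.74%, 0% and 0.935%, against 1.73%, 5.41%, 1.32% and 5.43% of all tested genes). The 0, from limma, stands beside 20 members at an unadjusted p under 0.05. The share of all tested genes at that level is not given for this fit. The filter at 5 FPKM, which keeps 70 of the members, left 3 calls between the dark-skinned cultivars and 2 between Centennial Seedless and Victoria. These were 4.29% and 2.86% of the members kept, against 6.54% and 2.36% of all genes tested with this filter. With 1 library left out, 4.96% to 7.45%, 4.24% to 6.91%, 2.36% to 3.42% and 3.75% to 5.99% of all tested genes were called. The members called then numbered 4 to 7, 3 to 6, 1 to 5 and 2 to 7, both in the same order of comparisons. The 2 came without Shine muscat 2, Shine muscat 3 or Centennial Seedless 1, the 7 without Summer Black 1 between the dark-skinned cultivars and without Victoria 3 between Shine muscat and Centennial Seedless, and the 1 without Centennial Seedless 3. Of the 18 called differences, 9 were kept in every fit that leaves out 1 library, and that of VIT_04s0044g00020 was kept under all 24 alternatives. VIT_02s0012g00360 lost its call under 6 of 24, among them quantile normalization (0.95 on the log2 scale), the fit of the compared cultivars only (limma adjusted p = 0.0299) and 3 of the fits without 1 library.

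The labels state nothing that libraries of the same number share, and in none of the 4 comparisons did all 3 correlations of same-numbered libraries exceed 0.1, so the replicate number was not used to pair them. Over all pairs of cultivars, 13 of 30 such correlations exceeded 0.1 (-0.35 to 0.60), those of Midknight Beauty with Centennial Seedless being 0.22 to 0.60, and 9 of 15 libraries were closest to their own number, a hint from the data that leaves a pairing possible. With the replicate block the calls numbered 5, 5, 3 and 6. These were 4.67%, 4.67%, 2.8% and 5.61% of the members, against 7.32%, 6.83%, 3.15% and 5.92% of all tested genes. VIT_05s0049g00730 was then called in neither comparison with Victoria.

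Read counts per gene were not used here, so the counting error of the members below 1 FPKM in dark skin is not given.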

Other observations

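On scaffold 147 of chromosome 13, VIT_13s0147g00180 was also a member, at 6.69 to 8.82 FPKM in dark skin and 9.35 to 17.9 FPKM in light skin. Between it and the pair VIT_13s0147g00150 and VIT_13s0147g00160 lies VIT_13s0147g00170, which had the opposite arrangement for 1 dark-skinned cultivar. It gave 2.78, 4.41 and 1.42 FPKM in Midknight Beauty, no more than 0.151 FPKM in Summer Black and no more than 0.274 FPKM in the light-skinned libraries. Both genes were looked up after the values of their neighbours were seen.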
